A study of Mus musculus with 12 samples.

Results

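Cytosolic ribosomal protein (RP) genes encode the proteins of the small (40S) and large (60S) subunits of the ribosome. The genes were chosen by name, as *Rpl*, *Rplp*, or *Rps* followed by a number, with processed copies named -ps left out. This gave 85 of the 38127 genes in the counts. They comprise 29 canonical 40S genes, 46 canonical 60S genes, and 10 further genes grouped here as paralogs, such as *Rpl3l* and *Rpl22l1*. GENCODE annotates 3 of these 10 as processed pseudogenes, *Rpl6l*, *Rps12l1*, and the transcribed *Rps4l*, which the rule kept because their names do not hold -ps. RP genes lie on many chromosomes but are transcribed together, and their mRNAs typically start with a C followed by a pyrimidine tract (the 5′ TOP motif), through which mTOR and LARP1 control their translation. Erythroid progenitors build many ribosomes before they fill with hemoglobin, and mutations of single RP genes cause Diamond-Blackfan anemia, a failure of red cell production.

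RNA from sorted cells described as C57BL/6 fetal liver (FL) was sequenced in 12 libraries, 3 for each of 4 populations. The replicates are described as independent litters for the E14.5 populations. For the E18.5 libraries no such description was found, and p-values then measure only the spread between these libraries, which may be technical. All cells were Ter119-CD45-. P2 cells (CD54-CD31-Kit+CD24+), CD324+ cells (labelled CD54+CD31-), and CD31+ cells (CD54+CD31+) came from embryonic day (E) 14.5. The last population was CD54+CD31- at E18.5. Total counts were between 40714017 and 64368883 per library. Levels are counts per 1000000 (CPM) on TMM-normalized library sizes, and fold changes are edgeR log2 fold changes ± SE. A gene was called at an adjusted p below 0.05 over the 16643 genes tested.

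The summed level of 10 erythroid genes was between 2744 and 2904 CPM in P2 cells and at most 661 CPM in any other library. The 10 hepatoblast genes summed to between 75193 and 86730 CPM in CD324+ cells, and the 10 endothelial genes to between 9969 and 10655 CPM in CD31+ cells. The E18.5 libraries stood apart: 10 lung epithelial genes summed to between 9756 and 21595 CPM there, against 155 to 169 CPM in CD324+ cells, where 6 of the 10 were below 1 CPM in every library, and 8 mesenchymal genes to between 3939 and 4370 CPM, against 121 to 238 CPM. E18.5 replicate 1 had the lowest summed hepatoblast level of that population, 4863 CPM, and the highest lung level. Whether the E18.5 libraries hold FL cells alone was not tested. The 8 macrophage genes summed to between 1349 and 1605 CPM in CD31+ cells, against 13.9 to 62.4 CPM in P2, 130 to 247 CPM in CD324+, and 364 to 587 CPM in E18.5 cells, so they moved with both comparisons of CD31+ cells, and their part in these was not tested. The 5 lymphoid genes summed to at most 2.01 CPM in every library.

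Of the 85 genes, 80 had counts and all 80 passed the low count filter. The other 5 were listed at 0 in all 12 libraries. *Rpl10l* is a paralog and *Rps4l* and *Rps12l1* are annotated as processed pseudogenes, but *Rpl13* and *Rpl35* are canonical 60S genes that every ribosome carries, so their 0 cannot be read as a lack of expression. Of the 50-base windows of *Rpl35* transcripts, 84.0% occur in transcripts of other genes, and of those of *Rpl13* 24.4%. How the authors' counting treated reads that fit several genes is not given in the sources used here. Across the 73 canonical genes with counts, the share of such windows ran from 0% to 81.1%, with a median of 23.7%.

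To show the motif that these genes are known for, the start regions of 8 named members are printed from RefSeq (GRCm38.p6), from 10 bases before to 20 bases after the annotated start, 5′ to 3′. Capitals mark a C followed by 4 or more pyrimidines where one was found near the start. Pyrimidines before the start are left in lower case, such as the run that opens the *Rps27l* window. The first 4 have it at the first base, and *Rps12* and *Rps27l* have it further in. *Rpl24* and *Rpl27* do not have it in this window. The printed *Rpl27* window ends before the GENCODE start of this gene, at base 101442298, and does not cover that start.
Rps6, chr4:86857348-86857377, minus strand: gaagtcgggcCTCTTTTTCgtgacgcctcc
Rps27, chr3:90213629-90213658, minus strand: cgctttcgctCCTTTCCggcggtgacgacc
Rps10, chr17:27635225-27635254, minus strand: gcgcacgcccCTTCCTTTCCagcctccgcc
Rpl15, chr14:18270967-18270996, minus strand: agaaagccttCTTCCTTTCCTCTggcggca
Rps12, chr10:23787190-23787219, minus strand: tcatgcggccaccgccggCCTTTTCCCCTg
Rps27l, chr9:66946076-66946105, plus strand: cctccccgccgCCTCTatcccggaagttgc
Rpl24, chr16:55966265-55966294, plus strand: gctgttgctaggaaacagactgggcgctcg
Rpl27, chr11:101442235-101442264, plus strand: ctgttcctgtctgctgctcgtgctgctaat

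RefSeq had 74 annotated starts for 62 of the 85 genes. A tract of C and at least 4 pyrimidines stood at the first base of 17.6% of these starts, against 2.51% of all 32851 annotated starts. Within 5 bases before to 16 bases after the start, on the transcribed strand, it was found in 50% of the RP starts and in 25.4% of all starts. An annotated start may differ from the base at which transcription begins in these cells. The 12 canonical genes with a tract at an annotated start had a median log2 fold change of 0.68 in P2 over CD324+ cells, and the 41 with a RefSeq start but no such tract 0.67. The same medians were 1.13 and 1.13 in P2 over CD31+ cells, -0.43 and -0.41 in CD31+ over CD324+ cells, and -1.38 and -1.28 at E18.5 over E14.5. The class with the tract and the class without it lay close together in each comparison. The class without it can hold genes whose tract lies off the annotated start, so these medians cannot set genes with the motif against genes lacking it.

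RP genes were counted most in P2 cells. They held 1.74%, 1.71%, and 1.76% of all counts in the 3 P2 libraries (1.74% ± 0.024, SD, n = 3). In CD324+ cells they held 0.728%, 0.953%, and 0.958% (0.880% ± 0.131), and in CD31+ cells 0.904%, 1.01%, and 0.931% (0.949% ± 0.056). In the E18.5 libraries the shares were 0.650%, 0.545%, and 0.502% (0.566% ± 0.076). Every P2 library lay above all others and every E18.5 library below all others, whereas CD324+ and CD31+ libraries overlapped on this raw scale. *Cdk8*, *Zc3h7a*, and *Il1rapl1*, which are not RP genes, held 15.96% to 20.4% of the counts in P2 cells, 19.2% to 23.1% in CD324+ cells, 14.2% to 16.03% in CD31+ cells, and 10.8% to 14.1% at E18.5. The part of these 3 genes in the shares was not tested. The small subunit genes held similar parts of the RP counts throughout, 32.1% ± 1.4 in P2, 33.6% ± 0.19 in CD324+, 33.2% ± 2.8 in CD31+, and 33.9% ± 0.85 in E18.5 cells (SD, n = 3 each).

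**Figure D1:**
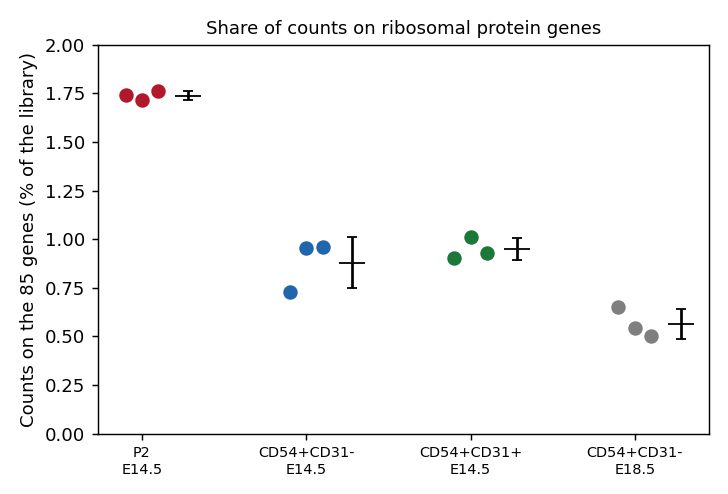
Counts on the 85 RP genes as a percentage of all counts of a library (vertical axis, from 0). Each point is 1 library, and the bar beside the points is the mean ± SD (n = 3). The P2 libraries sit between 1.71% and 1.76%, and the highest other library at 1.01%.

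Of the 80 genes, 79 had their highest mean CPM in P2 cells and 77 their lowest in the E18.5 libraries. The exception at the top was *Rpl6l*, annotated as a processed pseudogene, with 96 counts over all libraries, with its highest mean in CD324+ cells. For 71 of the 80 genes every P2 library lay above all 9 other libraries, a pattern that 23.5% of all genes tested showed. The plot of levels by library shows how alike the genes run across the populations.

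**Figure D2:**
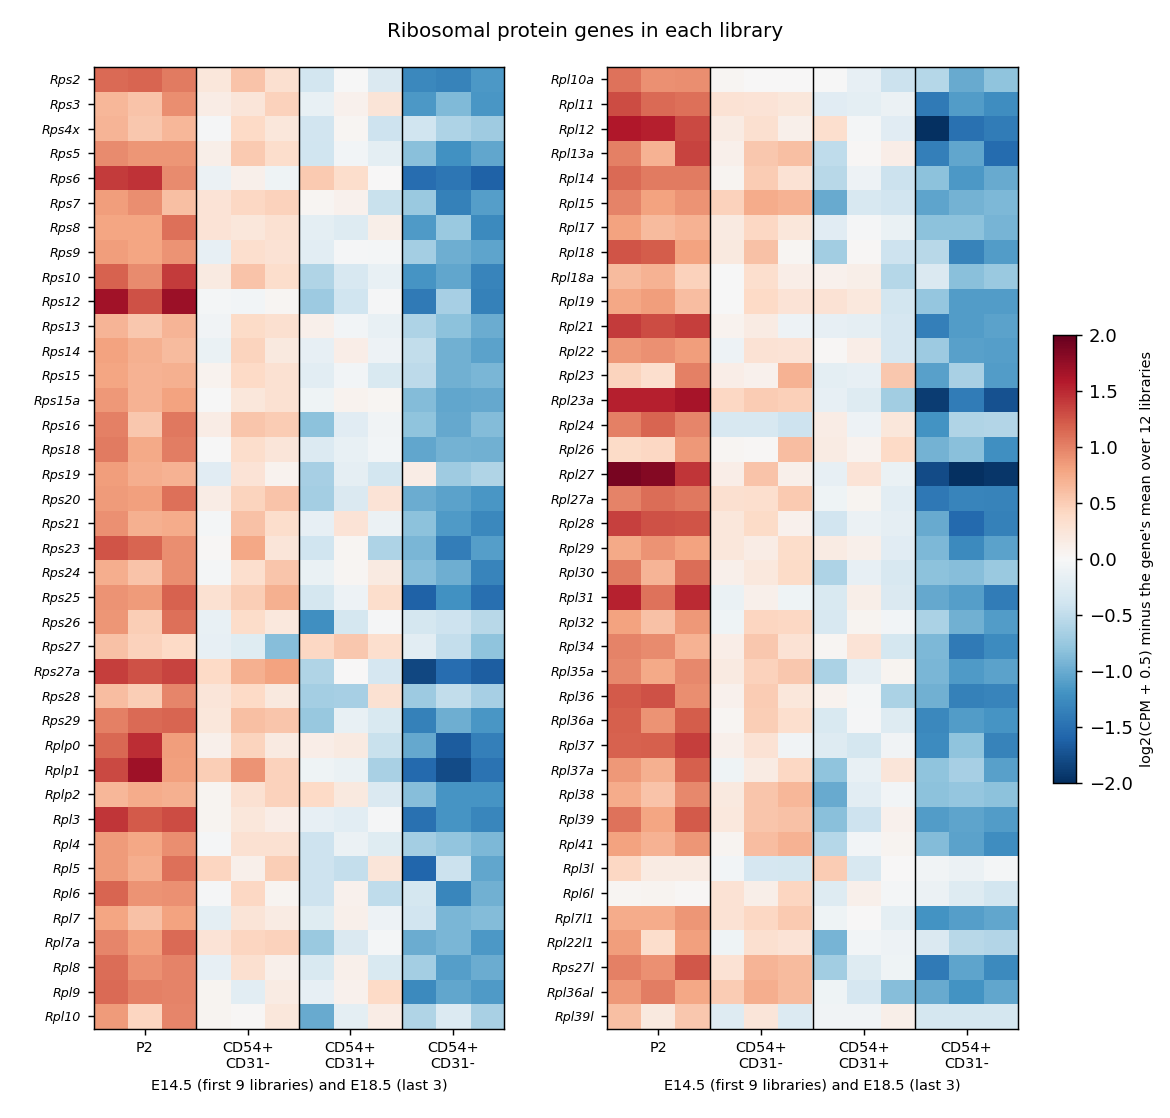
Each row is 1 of the RP genes reported here that had counts (small subunit genes, then large subunit genes, then paralogs) and each column 1 library, in the order replicate 1 to 3 within a population. Color gives log2(CPM + 0.5) minus the gene's mean over the 12 libraries, cut at -2 and 2. Most rows run from red in P2 cells to blue at E18.5, and *Rps27*, *Rps19*, *Rpl6l*, and *Rpl3l* are among the rows that do not.

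Levels of different RP genes were compared per kilobase of merged exons, as means over the 12 libraries. *Rplp1*, of the P-stalk that recruits elongation factors, was highest at 621 CPM per kilobase, followed by *Rpl8* (609), *Rpl4* (608), *Rplp0* (480), and *Rpl32* (401), all of the 60S subunit. *Rps27* was the lowest canonical gene with counts, at 2.46, and the median over the 73 canonical genes was 23.6 CPM per kilobase. The highest and lowest canonical genes thus differed 252-fold in counts per kilobase. Across the 73 genes this level and the share of windows found in other genes' transcripts had a Spearman rho of -0.02, a description only, since all genes share the same libraries. The 4 most counted genes, *Rpl4*, *Rpl8*, *Rplp0*, and *Rps3*, held 31.9% to 35.2% of the RP counts of a library.

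The comparison of P2 with CD324+ cells asks how the Kit+ population differs from the epithelial cells of FL at the same age. Of the 80 RP genes, 68 were called higher in P2 cells, where 31.7% of all genes tested were called higher. None was called lower, by edgeR or by DESeq2 (34.1% of all genes tested were called lower by edgeR), and 0 had an unadjusted p below 0.05 in that direction. The libraries did not overlap for 73 genes that were higher (35.1% of all genes tested) and for 1 that was lower (36.6%), *Rpl6l*. The calls covered 27 of 29 canonical 40S genes, 39 of 44 canonical 60S genes, and 2 of 7 paralogs. The median log2 fold change was 0.67 for the RP genes and -0.06 for all genes tested, a distance of 0.72 that ranged from 0.52 to 0.78 over the alternatives. With the authors' library factors, which moved the median of all genes to -0.34, 38 were called higher and the RP median was 0.39. With the library total alone, which moved it to 0.28, 79 were called higher and the RP median was 1.02. Of all calls, 48.2% were higher in P2 cells on TMM sizes, 37.3% with the authors' factors, and 59.2% on library totals. In bulk RNA, fewer cells of a type and less RNA per cell cannot be told apart.

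*Rps12*, a 40S protein gene, had the largest change among the called genes whose libraries did not overlap. It had 48.0, 36.1, and 49.1 CPM in the P2 libraries and 14.2, 14.1, and 15.1 CPM in the CD324+ libraries. Every P2 library lay above every CD324+ library (log2 fold change 1.62 ± 0.18, adjusted p = 1.6e-05). *Rpl24*, a 60S gene whose mutation causes the mouse Belly spot and tail phenotype, had 11.9, 13.4, and 11.7 CPM against 4.41, 4.44, and 4.12 CPM (1.51 ± 0.15, adjusted p = 4.35e-06). *Rpl27*, another 60S gene mutated in Diamond-Blackfan anemia, had 47.2, 45.2, and 34.1 CPM against 13.6, 18.5, and 13.3 CPM (1.48 ± 0.18, adjusted p = 3.17e-05). All 3 genes stayed called under every alternative. *Rpl4*, which lines the exit tunnel and is the most counted RP gene, had the smaller log2 fold change of 0.64 ± 0.12 (adjusted p = 0.000525).

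The 12 genes not called between P2 and CD324+ cells were *Rpl15*, *Rps16*, *Rpl38*, *Rpl26*, *Rps28*, *Rpl23*, *Rpl41*, and the paralogs *Rpl22l1*, *Rpl36al*, *Rpl3l*, *Rpl39l*, and *Rpl6l*. Of these, *Rpl6l* alone had a negative log2 fold change, of -0.77. *Rpl15*, a 60S gene of the Diamond-Blackfan list, had 50.4, 44.3, and 47.7 CPM in P2 cells and 34.8, 42.7, and 41.3 CPM in CD324+ cells. Its libraries did not overlap, but the difference of 0.26 ± 0.17 did not pass the test (adjusted p = 0.196).

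In P2 against CD31+ cells 74 of the 80 genes were called higher in P2 cells, against 31.9% of all genes tested. None was called lower by edgeR or DESeq2, against 36.8% of all genes by edgeR, and 0 had an unadjusted p below 0.05 in that direction. The RP median log2 fold change was 1.13 and that of all genes -0.17, a distance of 1.30 that ranged from 1.00 to 1.36 over the alternatives. The libraries did not overlap for 75 genes that were higher (34.4% of all genes tested) and for 0 that were lower (38.7%). The authors' factors moved the RP median to 0.75 and that of all genes to -0.56, with 67 RP genes called higher, and lowered the higher share of all calls from 46.4% to 33.3%. On TMM sizes the RP median was larger here than against CD324+ cells, but on library totals it was 0.99 here and 1.02 there. The 6 genes not called were *Rps27*, *Rpl26*, *Rpl23*, *Rpl3l*, *Rpl39l*, and *Rpl6l*. This comparison and the one with CD324+ cells share the P2 libraries, so their values are not independent of each other.

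*Rpl23a*, which sits at the exit of the 60S tunnel, had 38.9, 39.3, and 41.9 CPM in P2 cells and 11.5, 10.8, and 7.86 CPM in CD31+ cells (log2 fold change 2.00 ± 0.14, adjusted p = 3.78e-07). Of the *Rpl23a* windows 80.8% occur in transcripts of other genes. Annotation on the other strand overlaps 59.7% of its exon length, and 3 snoRNA genes lie inside it. Whether reads of other genes entered the *Rpl23a* counts was not tested. *Rps12* had 8.67, 11.01, and 14.5 CPM in CD31+ cells (1.96 ± 0.18, adjusted p = 3.59e-06). In both genes no CD31+ library reached a P2 library. *Rps27*, a 40S gene, was the opposite case, with 3.86, 3.496, and 3.31 CPM in P2 cells and 3.34, 3.72, and 3.14 CPM in CD31+ cells. These libraries overlapped (0.06 ± 0.24, adjusted p = 0.832).

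Between CD31+ and CD324+ cells the direction depended on the scaling. On TMM sizes 41 RP genes were called lower in CD31+ cells (31.6% of all genes tested) and 2 higher (29.7% of all genes tested), with a median log2 fold change of -0.45 against -0.03 for all genes. With the library total alone 5 were called lower and 5 higher, and the RP median was 0.04 while the median of all genes moved to 0.45 and the higher share of all calls from 48.4% to 71.3%. Relative to all genes, the RP median lay lower by -0.42 on TMM sizes and by -0.42 on library totals, and the distance ranged from -0.48 to -0.33 over the alternatives. On TMM sizes the libraries did not overlap for 38 genes that were lower (34.1% of all genes tested) and 2 that were higher (32.1%). Same-numbered libraries of these populations deviated together. With the replicate number as a block 49 RP genes were called lower and 2 higher, against 5352 and 4965 of all genes tested.

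*Rpl15* had 12.3, 20.2, and 19.3 CPM in CD31+ cells, below all CD324+ libraries (log2 fold change -1.20 ± 0.17, adjusted p = 0.000117). The paralog *Rpl36al* had 71.8, 59.8, and 41.7 CPM in CD31+ cells against 108, 126, and 119 CPM (-1.02 ± 0.17, adjusted p = 0.00037). Both genes stayed called lower under every alternative, the library total included. The 2 genes called higher in CD31+ cells were *Rps27*, with 2.09 and 1.95 CPM in replicates 1 and 2 of CD324+ cells and its lowest level in replicate 3 (0.99 ± 0.25, adjusted p = 0.00583), and *Rpl24*, with 6.32, 5.27, and 6.73 CPM in CD31+ cells (0.50 ± 0.14, adjusted p = 0.0116). Neither gene's libraries overlapped between these populations. Without CD324+ replicate 3, 1 RP gene was called higher, against 4352 of all genes tested.

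The E18.5 libraries share their sorting phenotype with the CD324+ libraries, but their marker sums differ. In this comparison of E18.5 with E14.5, age and cell composition cannot be told apart. Of the 80 genes, 76 were called lower at E18.5 by edgeR (37.1% of all genes tested) and 75 by DESeq2. By both tools 0 were called higher, with 0 at an unadjusted p below 0.05 (30.5% of all genes were called higher by edgeR). The libraries did not overlap for 77 genes that were lower (41.5% of all genes tested) and for 0 that were higher (34%). The RP median log2 fold change was -1.33 against -0.14 for all genes. Their distance was -1.19, and it ranged from -1.30 to -0.97 over the alternatives. With the authors' factors, which moved the median of all genes to 0.28, 67 were called lower, and with the library total, which moved it to 0.46, 55. The higher share of all calls moved from 45.2% to 61.2% and 68.8%. The summed lung, mesenchymal, macrophage, and endothelial markers were higher in every E18.5 library than in every CD324+ library. Hepatoblast sums were lower, at 4863, 39722, and 51607 CPM in the E18.5 libraries, against 75193 to 86730 CPM in CD324+ cells. Erythroid sums were lower too, at 143.2 to 251.2 CPM at E18.5, against 399.2 to 660.6 CPM in CD324+ cells. These markers thus moved with the RP difference, and their part in it was not tested. Without E18.5 replicate 1, the library with the most lung signal, 77 RP genes were called lower (6504 of all genes tested). The RP median was then -1.39. Without CD324+ replicate 1, 1 RP gene was called higher, against 5768 of all genes tested.

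*Rpl27* had 3.22, 2.28, and 2.84 CPM at E18.5 (log2 fold change -2.45 ± 0.21, adjusted p = 7.81e-05). *Rps27a*, which encodes ubiquitin fused to a 40S protein, had 8.26, 10.2, and 9.39 CPM at E18.5 and 40.03, 49.8, and 53.6 CPM at E14.5 (-2.36 ± 0.15, adjusted p = 2.97e-05). No E18.5 library of these genes reached an E14.5 library. The 4 genes not called were *Rpl24* (-0.47 ± 0.23, adjusted p = 0.117), *Rps19* (-0.39 ± 0.26, adjusted p = 0.215), *Rps27* (-0.11 ± 0.34, adjusted p = 0.782), and the paralog *Rpl3l* with 116 counts in all libraries together. The log2 fold changes of *Rpl24*, *Rps19*, and *Rps27* turned positive on library totals, at 0.13, 0.22, and 0.50. *Rps19*, the gene most often mutated in Diamond-Blackfan anemia, had 115, 63.1, and 67.9 CPM at E18.5 and 88.7, 125, and 109 CPM at E14.5, and these libraries overlapped.

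**Figure D3:**
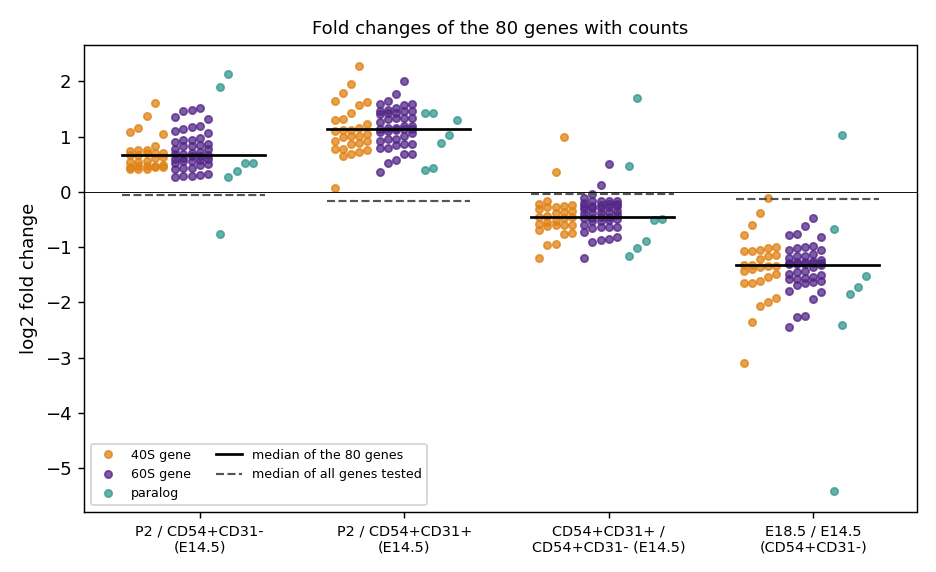
Log2 fold change (vertical axis) of each of the 80 RP genes with counts in the 4 comparisons, with 1 point per gene and separate columns for small subunit genes, large subunit genes, and paralogs. The solid line is the median of the 80 genes and the dashed line the median of the 16643 genes tested. The RP medians are 0.67, 1.13, -0.45, and -1.33, each away from the dashed line, and the scattered paralog points belong to genes with few counts.

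The P-stalk and the 5S particle were read as units. In P2 over CD324+ cells the stalk genes *Rplp0* (log2 fold change 0.93 ± 0.19), *Rplp1* (0.69 ± 0.22), and *Rplp2* (0.42 ± 0.16) were all called, at adjusted p of 0.00147, 0.0187, and 0.0421, though the *Rplp1* libraries overlapped. The call of *Rplp2* was kept in 12 of 19 alternatives. At E18.5 *Rplp1* was lower by 2.24 on the log2 scale, *Rplp0* by 1.58, and *Rplp2* by 1.35, all called. *Rplp1* and *Rplp0* also varied within P2 cells, at 595, 767, and 421 CPM and at 1468, 1833, and 1175 CPM, so that P2 replicate 2 was highest and replicate 3 lowest in both. *Rplp2* varied less there, at 804, 848, and 832 CPM. *Rpl5* and *Rpl11*, whose proteins carry the 5S rRNA and can bind the p53 regulator Mdm2, were called higher in P2 cells, with CD324+ cells as the reference (0.56 ± 0.19, adjusted p = 0.0255, and 0.95 ± 0.10, adjusted p = 9.32e-06) and lower at E18.5 (-1.31 ± 0.29 and -1.61 ± 0.13). *Rpl11* was tight within populations, with 29.8, 26.6, and 25.9 CPM in P2 and 14.5, 14.4, and 13.9 CPM in CD324+ cells. *Rps14*, whose loss is tied to the anemia of the 5q- syndrome, had 266.3, 252, and 238 CPM in P2 and 139, 208, and 175 CPM in CD324+ cells (0.53 ± 0.14, adjusted p = 0.00665).

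Of the 18 tested genes of a Diamond-Blackfan anemia list, all RP genes, 15 were called higher in P2 over CD324+ cells (31.7% of all genes tested), with a median of 0.68. In P2 over CD31+ cells 16 were called higher (31.9% of all genes; median 1.23), in CD31+ over CD324+ cells 10 lower (31.6%) and 1 higher (29.7%; median -0.50), and at E18.5 16 lower (37.1%; median -1.33). These medians lay near those of all RP genes. *Rps29* and *Rps10*, both of the 40S subunit, were lower by 1.91 and 1.62 at E18.5 on the log2 scale.

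To ask whether the proportions among RP genes shifted, each gene was also tested against the summed RP counts of its library. In P2 against CD324+ cells 13 genes had a larger share (13.6% of all genes tested were called higher on this scale) and 2 a smaller one (48.8%). The 13 are 16.25% of the 80 RP genes, near the share of all genes. *Rps12* had the largest relative rise, from 0.146%, 0.115%, and 0.127% of the RP counts in CD324+ cells to 0.272%, 0.209%, and 0.281% in P2 cells (0.97 ± 0.20, adjusted p = 0.0012). *Rpl24* (0.86 ± 0.19, adjusted p = 0.00213) and *Rpl27* (0.84 ± 0.16, adjusted p = 0.000811) followed, and these 3 stayed called under every alternative. The 2 smaller shares, of *Rpl15* (-0.37 ± 0.14) and *Rpl7l1* (-0.25 ± 0.10), were called in only 5 and 6 of 14 alternatives. Without any 1 of the P2 libraries, CD324+ replicate 1 or 3, or CD31+ replicate 2, 0 genes had a smaller share (edgeR), without CD324+ replicate 2 1 gene, and without CD31+ replicate 1 6 genes. Over the 73 canonical genes the relative change and the level per kilobase had a Spearman rho of -0.45 in P2 over CD324+, -0.34 in P2 over CD31+, -0.0022 in CD31+ over CD324+, and 0.097 in E18.5 over E14.5 cells. The relative change and the share of windows found elsewhere had a rho of 0.16, 0.21, -0.15, and -0.16 in the same order, all as descriptions of the same libraries.

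In P2 against CD31+ cells 24 genes had a larger share (8.72% of all genes tested) and 6 a smaller one (63.4%). With the geometric mean of the RP genes as the reference, which gives each gene the same weight, these counts became 15 and 20, so the balance of directions depends on the reference. Without P2 replicate 1 the smaller shares numbered 2, and without P2 replicate 2 or CD31+ replicate 1 they numbered 3. *Rpl23a* (0.99 ± 0.15, adjusted p = 0.000118) and *Rps12* (0.95 ± 0.20, adjusted p = 0.00114) gained, and *Rps27* (-0.94 ± 0.28, adjusted p = 0.0101), *Rpl26* (-0.66 ± 0.19, adjusted p = 0.0101), and *Rplp2* (-0.44 ± 0.16, adjusted p = 0.0278) lost most. Of these 5, *Rplp2* alone was lost under some alternatives.

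In CD31+ against CD324+ cells 3 genes had a larger share (40.9% of all genes tested) and 8 a smaller one (20.7%). Same-numbered replicates deviated together here, and with the block the counts were 5 and 15. Without CD31+ replicate 3 they were 6 and 17, and without CD31+ replicate 2 or CD324+ replicate 1 5 genes had a larger share. *Rps27* rose from 0.0215%, 0.0160%, and 0.0093% of the RP counts in CD324+ cells to 0.0407%, 0.0393%, and 0.0375% in CD31+ cells (1.34 ± 0.29, adjusted p = 0.00197). *Rpl24* (0.87 ± 0.19, adjusted p = 0.00218) and *Rps6* (0.74 ± 0.19, adjusted p = 0.00574), the 40S target of the S6 kinases, also rose. *Rpl15* (-0.83 ± 0.15, adjusted p = 0.000497) and *Rpl36al* (-0.65 ± 0.18, adjusted p = 0.00827) fell. These 5 genes were called under every alternative.

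At E18.5 against E14.5 9 genes had a larger share (61.6% of all genes tested) and 11 a smaller one (6.35%). *Rps19* held 2.15%, 1.39%, and 1.53% of the RP counts at E18.5, against 0.913%, 1.02%, and 0.913% at E14.5, with no overlap (0.83 ± 0.19, adjusted p = 0.00553). Without E18.5 replicate 1, which had its highest share, the change was 0.62, and it was called under every alternative. *Rps27* (1.08 ± 0.37, adjusted p = 0.0321) was called in 8 of 11 alternatives, and the few counts of *Rpl3l* (2.19 ± 0.78, adjusted p = 0.0371) in 4 of 10. *Rpl27* (-1.21 ± 0.20, adjusted p = 0.00103) and *Rps27a* (-1.11 ± 0.17, adjusted p = 0.000826) lost share and stayed called under every alternative. With the replicate number as a block, which does not pair these libraries, 3 genes had a larger share. The count of larger shares rested on single libraries, and was 3 without CD324+ replicate 3, 4 without E18.5 replicate 2, and 5 without CD324+ replicate 2 or without E18.5 replicate 3. Without E18.5 replicate 1 it was 10, with 15 smaller shares.

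**Figure D4:**
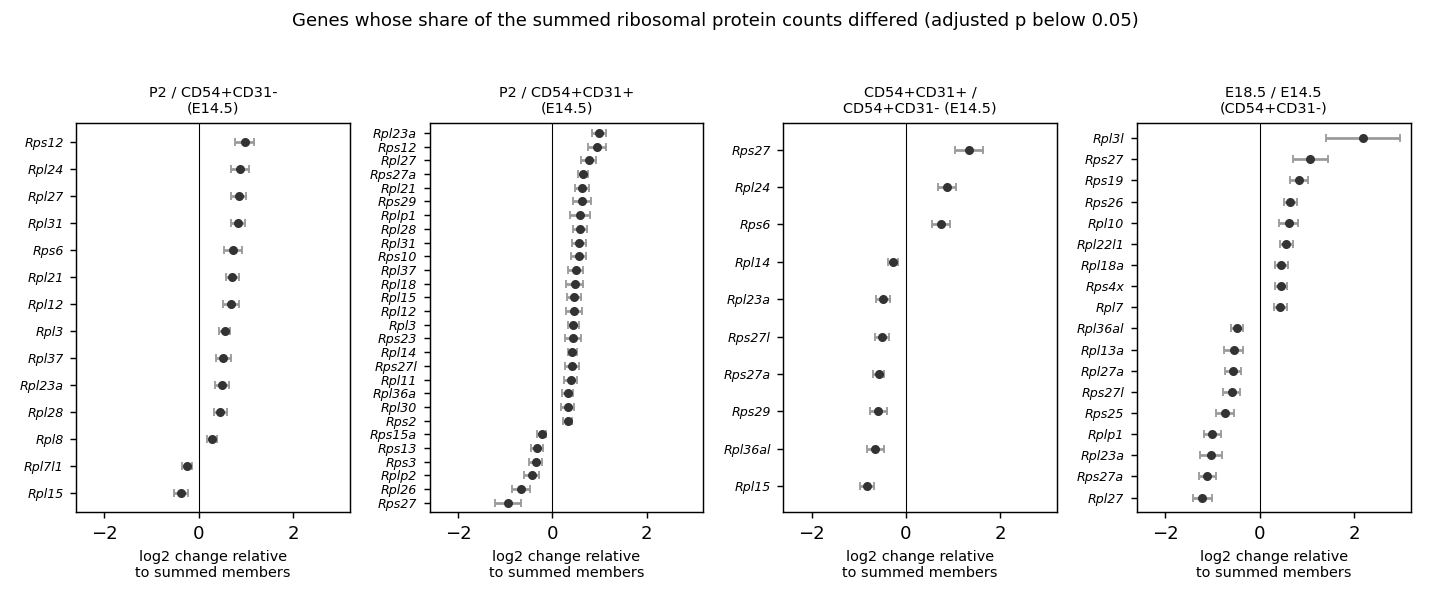
Genes reported here that were called when tested against the summed RP counts, 1 panel per comparison. The horizontal axis is the log2 change relative to the summed RP counts, points are the fitted changes, and bars are ± SE. *Rps27* runs from the bottom of the P2 over CD31+ panel (-0.94) to the top of the CD31+ over CD324+ panel (1.34).

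Some paralogs can take the place of their canonical partners in the ribosome, though a ratio of counts does not measure this. The log2 ratio of paralog to canonical counts within a library does not depend on library scaling. The ratio can still depend on how reads that fit several genes were counted, which was not tested. Of 8 listed pairs, 6 had counts on both genes. An exact permutation test over the 9 E14.5 libraries was used, two-sided, with a smallest possible p of 0.00357, and Benjamini-Hochberg adjustment over the 6 pairs. *Rps27l*, which differs from *Rps27* in few residues, was the one pair to pass. Its log2 ratio to *Rps27* was 3.43, 3.47, and 3.88 in P2 cells, 3.57, 4.06, and 4.83 in CD324+ cells, and 1.89, 2.18, and 2.60 in CD31+ cells. All CD31+ libraries lay below all P2 and CD324+ libraries (exact permutation p = 0.00714, adjusted p = 0.0429, n = 9). Without P2 replicate 1, P2 replicate 2, or CD324+ replicate 3 the adjusted p was 0.107, and without CD324+ replicate 2 it was 0.0643. In level, *Rps27l* had 41.6, 38.9, and 49.0 CPM in P2, 25.04, 32.8, and 31.9 in CD324+, and 12.4, 16.9, and 19.1 CPM in CD31+ cells, so the paralog was lower in CD31+ than in CD324+ cells (log2 fold change -0.89 ± 0.17, adjusted p = 0.000928) where *Rps27* was higher.

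At E18.5 the ratio of *Rps27l* to *Rps27* was 1.87, 2.59, and 2.80, below every CD324+ library (difference of means -1.74, exact permutation p = 0.10, adjusted p = 0.12). With 3 against 3 libraries no test of this kind can go below 0.10. The E18.5 ratios of *Rpl22l1* to *Rpl22* (-4.44, -4.37, and -4.39, against -4.86, -4.83, and -4.87) lay above all E14.5 CD324+ libraries, and those of *Rpl7l1* to *Rpl7* (-1.68, -1.04, and -1.05, against -0.37, -0.70, and -0.50) below them, both at the same smallest p. *Rpl22l1* can stand in for *Rpl22*, and its E14.5 ratios did not pass the test (adjusted p = 0.604). Neither did those of *Rpl7l1* (0.243), *Rpl36al* to *Rpl36a* (0.257), *Rpl39l* to *Rpl39* (0.243), or *Rpl3l* to *Rpl3* (0.459), by the exact permutation test with adjustment over the pairs. In these 5 pairs every pair of E14.5 populations overlapped, except *Rpl36al* to *Rpl36a* in P2 and CD324+ cells.

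Per kilobase of exon, *Rps27l* was counted at 1544% of *Rps27* in P2 cells and 597% in CD31+ cells, and *Rpl36al* at 575% of *Rpl36a* in P2 cells. *Rps27* was the lowest canonical gene with counts, with 508 in P2, 181 in CD324+, and 593 in CD31+ cells. Of its windows 25% occur in transcripts of other genes. Whether its low counts come from the counting was not tested, so the percentages describe counts only. The other paralogs were counted below their partners, in P2 cells *Rpl7l1* at 44.5%, *Rpl22l1* at 4.38%, *Rpl39l* at 2.18%, and *Rpl3l* at 0.472%. *Rpl3l* and *Rpl39l*, known from striated muscle and from testis, had few counts. The summed counts of *Rpl39l* were 53 in P2, 10 in CD324+, 24 in CD31+, and 0 in E18.5 cells, where 0 counts allow up to 3 per library. The call of this gene at E18.5 (adjusted p = 0.0485) was kept in 5 of 14 alternatives. *Rpl10l*, known from testis, and *Rps4l* had 0 counts throughout, beside 10801 counts of *Rpl10* and 67722 of *Rps4x*. The 2 pairs added after the names in the counts were seen gave 96 counts of *Rpl6l* against 83505 of *Rpl6*, and 0 of *Rps12l1* against 11387 of *Rps12*.

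**Figure D5:**
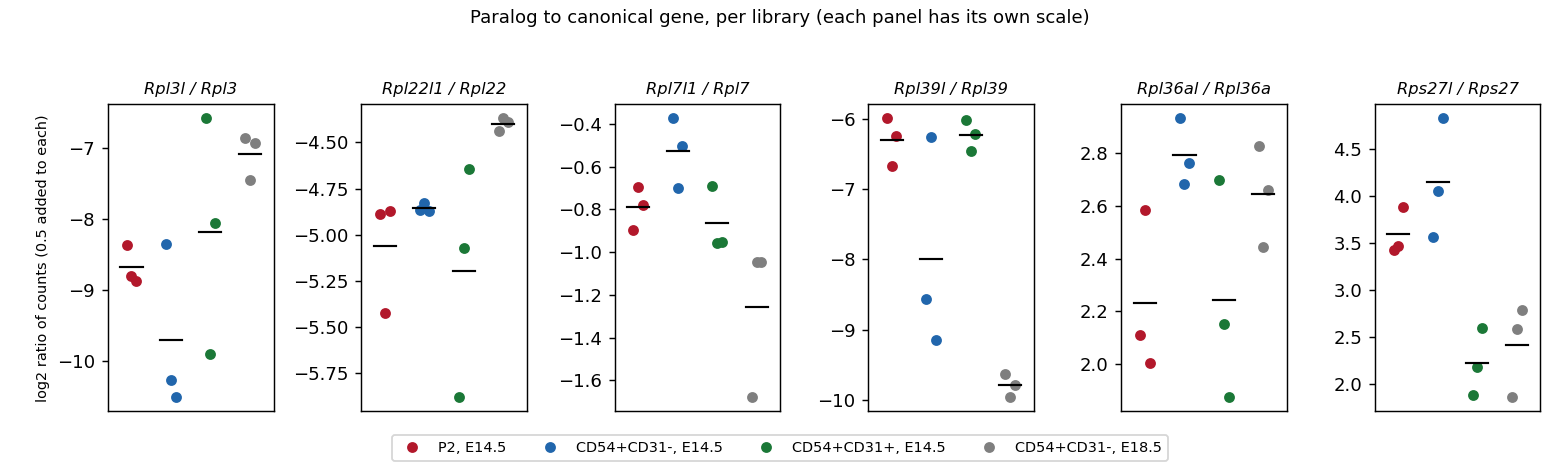
Log2 ratio of paralog to canonical counts (0.5 added to each) in each library for the 6 pairs with counts, with the mean of each population as a line and a separate vertical scale per pair. For *Rps27l* over *Rps27* the CD31+ libraries (1.89 to 2.60) and the E18.5 libraries (1.87 to 2.80) sit below the P2 and CD324+ libraries (3.43 to 4.83).

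Genes that work with the RP genes were read from lists chosen for this purpose. Of 4 canonical RP genes whose names the rule misses, *Rpsa*, *Rps3a1*, and *Fau* were tested. These 3 were called higher in P2 cells against both other E14.5 populations, lower in CD31+ than in CD324+ cells, and lower at E18.5, with medians of 0.66, 1.29, -0.63, and -1.55. All 20 tested ribosome assembly genes were called higher in P2 cells in both comparisons (31.7% and 31.9% of all genes tested), with medians of 1.44 over CD324+ and 1.58 over CD31+ cells, above the RP medians of 0.67 and 1.13. *Ncl* and *Dkc1*, a nucleolar protein and the pseudouridine synthase of rRNA, had log2 fold changes of 1.66 and 1.71 in P2 over CD324+ cells. At E18.5 19 of the 20 were called lower (37.1% of all genes; median -1.84). Of 18 further genes with a TOP motif that encode translation factors and related proteins, 16 were called higher in P2 over CD324+ cells (31.7% of all genes tested; median 0.93), 17 in P2 over CD31+ cells (31.9%; median 0.94), and 14 lower at E18.5 (37.1%; median -0.74). In CD31+ over CD324+ cells 1 was called higher (29.7%) and 6 lower (31.6%), with a median of -0.01 against -0.45 for the RP genes. Among 9 genes that regulate RP genes or their mRNAs, 4 were called higher and 2 lower in P2 over CD324+ cells, where 31.7% and 34.1% of all genes were. *Myc*, a transcriptional activator of RP genes, was higher at 2.41 and its relative *Mycn* lower at -4.90. *Larp1* was higher at 0.40 and *Mtor* lower at -0.93. In P2 over CD31+ cells *Mtor* was not called (0.07 ± 0.08, edgeR adjusted p = 0.439). There *Myc* (1.28) and *Larp1* (1.52) were called higher and *Mycn* (-3.14) lower. At E18.5 all 9 were called lower (37.1% of all genes).

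Of the 78 mitochondrial RP genes, which encode proteins of the separate ribosome of mitochondria, 74 were tested. In P2 over CD324+ cells 42 were called higher (31.7% of all genes tested) and 2 lower (34.1%), with a median log2 fold change of 0.35 against 0.67 for the cytosolic genes. In P2 over CD31+ cells 70 were called higher (31.9%) and 1 lower (36.8%; median 1.23), in CD31+ over CD324+ cells 1 higher (29.7%) and 64 lower (31.6%; median -0.81), and at E18.5 73 lower (37.1%; median -1.60). The difference between the groups of genes was not tested. Processed copies named -ps numbered 276, of which 28 were tested, and held at most 0.0094% of a library's counts. Their medians were 0.50, 1.00, -0.41, and -1.08 in the 4 comparisons, with 3 and 13 called higher in P2 cells (31.7% and 31.9% of all genes tested) and 4 and 11 called lower in the last 2 comparisons (31.6% and 37.1%). They carry sequence of the RP genes, and reads of one and the other may not be told apart.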

How the data were processed

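Total RNA of sorted FL cells was depleted of rRNA enzymatically and prepared with a stranded low-input kit. Per the submitters' processing notes and the paper's methods, the authors trimmed single-end reads with cutadapt 1.11, aligned them to GRCm38 (mm10) with STAR 2.5.0a, and counted them per gene with featureCounts 1.4.6-p3. The use of strand and of reads with several alignments is not given in the sources used here. The authors deposited raw counts, which were used for every test, and a second column, a score equal to the count times 1 factor per library, which was used only to read the authors' library factors.

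RP genes were matched by identifier in the counts, and GENCODE vM21 gave exon lengths and transcripts. The members and lists were chosen with earlier results of these data known. Tests used R 4.3.3 and edgeR 4.0.16: TMM factors over 12 libraries, filterByExpr, the quasi-likelihood test, and Benjamini-Hochberg adjustment over 16643 genes. One fit held the 9 E14.5 libraries and another the 6 CD54+CD31- libraries, with population as the only factor. SEs were derived from the F statistic. For the relative change, library size was the summed RP count. Named were all paralog pairs, the 5 highest and 3 lowest genes per kilobase, the 3 largest called changes per direction and comparison without overlap between libraries, the 3 largest relative changes per direction, the P-stalk, *Rpl5*, *Rpl11*, *Rps14*, and 6 genes of the Diamond-Blackfan list. Results of 2 genes that this rule named are not reported here, though the counts and medians include them. The alternatives were DESeq2 1.42.0, its size factors, the authors' factors, library totals, genes above 1% left out, no filter, at least 10 counts in every library, all 12 or only 6 libraries in a fit, the replicate block, and each library left out. For ratios, 0.1 and 5 replaced the added count of 0.5.

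Same-numbered libraries of CD31+ and CD324+ cells deviated together from their population means (r = 0.334, 0.260, and 0.122 for replicates 1 to 3). Differently numbered libraries were not compared, so whether the labels' numbers pair these libraries was not tested. The block is given beside results it changes. On counts simulated for P2 against CD324+ cells over 16643 genes, edgeR called 69 of 98 genes changed 2-fold, 91 of 102 changed 4-fold, and 5 of 16443 unchanged genes. There few genes changed, in both directions, and library totals served as sizes. In the data 5283 genes were called higher and 5673 lower, so the simulation cannot measure false calls from scaling there. Replicate libraries differed by more than counting noise (chi-square per degree of freedom over genes between 42.0 and 572).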

Additional observations from a re-analysis of the deposited data

How the results depend on the processing

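Over 19 alternatives for each E14.5 comparison and 15 for E18.5 against E14.5, 593 of the summary values kept their direction and their side of the threshold or their size, 26 weakened, 14 strengthened, 18 moved, and 1 reversed. For the named genes 4219 values were kept, 97 strengthened, 163 weakened, and 5 reversed. With the library total, the RP median in CD31+ over CD324+ cells turned to 0.038, and *Rpl11* (0.033), *Rpl3* (0.22), *Rpl4* (0.027), *Rps19* (0.036), and *Rps4x* (0.040) turned positive too, the RP calls there became 5 higher and 5 lower, and the calls over all genes 7734 higher and 3118 lower. The same setting gave a median of 1.02 in P2 over CD324+ cells, and -0.73 at E18.5 with 3385 of all genes lower. With the authors' factors 38 RP genes were called higher in P2 over CD324+ cells (median 0.39), and the medians were 0.75 in P2 over CD31+ cells and -0.91 at E18.5. At E18.5 DESeq2 size factors gave -1.13 and DESeq2 -1.11. Where at least 10 counts in every library were required, which tests fewer genes, the distance of the RP median from that of all genes was 0.52, 1.00, and -0.97 in the comparisons of P2 with CD324+ cells, P2 with CD31+ cells, and E18.5 with E14.5. In the relative test, the geometric mean gave 7 smaller shares in P2 over CD324+ cells, 15 larger and 20 smaller in P2 over CD31+ cells, and 6 larger in CD31+ over CD324+ cells. Leaving the 4 most counted genes out of the sum, chosen after seeing the data, gave 0 smaller shares in the first and 5 larger in the last of these. Apart from scaling and fewer genes or samples, the cause was not tested.

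The replicate block gave 5 larger and 15 smaller shares in CD31+ over CD324+ cells, where same-numbered libraries deviated together. Correlations of same-numbered libraries were 0.067, -0.020, and 0.084 for P2 and CD324+ cells. They were 0.015, 0.077, and 0.336 for P2 and CD31+ cells, and 0.069, 0.017, and 0.046 for the 2 ages. In these other comparisons the block gave 72 and 76 RP genes higher in P2 cells, against 5358 and 5392 of all 16643 genes tested. At E18.5 it gave 75 RP genes lower, against 5847 of all genes, and 3 larger shares.

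Leaving out 1 library at a time gave RP medians between 0.61 and 0.90, 1.03 and 1.35, and -1.39 and -1.13 in P2 over CD324+, P2 over CD31+, and E18.5 over E14.5 cells. RP genes called higher in P2 over CD324+ cells numbered 51 to 74, against 4861 to 5979 of the 16643 genes tested. In CD31+ over CD324+ cells they numbered 1 to 3 (4352 to 4921 of all genes), and at E18.5 0 to 1 (4617 to 5768). Those called lower in CD31+ cells numbered 32 to 49 (4906 to 5554 of all genes). The smaller shares numbered 0 to 6 in P2 over CD324+ cells, 2 to 7 in P2 over CD31+ cells, and 7 to 17 in CD31+ over CD324+ cells, and the larger shares 3 to 6 in CD31+ over CD324+ cells and 3 to 10 at E18.5. The adjusted p of the *Rps27l* to *Rps27* ratio at E14.5 (exact permutation test) lay between 0.0214 and 0.107. The pair passed without some single libraries and did not pass without others, so its call rests on single libraries. Genes with few counts (*Rpl3l*, *Rpl6l*, *Rpl39l*) could not be measured finely at this depth.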
